A study of Homo sapiens with 38 samples.

Results

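HCT116 cells, an established human colorectal carcinoma line, were transfected with either of a pair of small interfering RNA (siRNA) duplexes that have no intended target, siCTRL#1 or siCTRL#2, and their messenger RNAs were counted. The 9 libraries compared were taken by their labels, 5 from siCTRL#1 and 4 from siCTRL#2, out of 38 libraries in the series. The study silenced VPS4A and VPS4B, paralogous ATPases that take apart ESCRT-III filaments on membranes, and used siCTRL#1 and non-transfected cells (NT, 4 libraries) as its references. The comparison asks how far the measured transcriptome depends on which non-targeting duplex the cells received. Cells of the siCTRL#1 group received 60 nM of that duplex and were collected after 72 h, as were the siCTRL#2 cells, whose exact dose in these libraries is not stated. Lipofectamine RNAiMAX carried the duplexes in both groups, and the NT cells received none. On-target cells, used further on, received 30 nM of siCTRL#1 with 30 nM of a duplex against VPS4A or VPS4B, or 30 nM each of a pair of on-target duplexes without siCTRL#1. Replicate numbers stand for batches in the labels, and the siCTRL#2 and NT groups have no replicate 5.

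An siRNA strand is loaded into an Argonaute protein and guides it to transcripts. Full pairing leads to cleavage, while pairing of the strand's seed, a short stretch near its 5′ end, with a 3′ untranslated region (3′ UTR) can lower other transcripts, as microRNAs do. Double-stranded RNA can also be recognised by cytosolic and endosomal sensors that switch on interferon-stimulated genes. HCT116 cells keep a functional p53 and carry a mutation that stabilises beta-catenin, the transcriptional effector of Wnt signalling. The sequences of siCTRL#1 and siCTRL#2 are in none of the sources used, so none is printed.

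Transcripts were amplified with a panel of primers, and the authors deposited, for each listed gene, its share of the reads of a library. Reads recovered from these shares totalled 5801458 to 10029811 in the siCTRL#1 libraries, 6957466 to 11035293 in the siCTRL#2 libraries and 7206744 to 9314802 in the NT libraries. A level resting on 3 reads, taken as the floor, corresponds to at most 0.517 in every 1000000 reads of these libraries, and this limit covers counting error only. Levels are given in RPM, reads per 1000000 reads after TMM scaling, and differences are on the scale of log2 of RPM with 1 added, which draws genes with few reads toward 0. A gene was called at a fold of at least 1.5 and a limma p under 0.05 after Benjamini-Hochberg adjustment over all genes.

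The library labelled siCTRL#1 replicate 4 stands apart from its batch. Its chi-square per degree of freedom against siCTRL#1 replicate 1 was 2.5, where the other pairs within a control group ran from 6.52 to 27.5. Its deviations from the group mean correlated across genes with those of siCTRL#1 replicate 1 at 0.496, of NT replicate 1 at 0.316 and of siCTRL#2 replicate 1 at 0.273. With the libraries of its own number the values were -0.14 for NT replicate 4 and -0.335 for siCTRL#2 replicate 4, and genes are not independent replicates. Whether replicate 4 is a culture of its own, or a further library of the cells of replicate 1, cannot be told from these values. In the latter case siCTRL#1 would have at most 4 cultures. The pair at 6.52 was siCTRL#1 replicates 2 and 5. Their root mean square log2 difference over genes was 0.262, near the 0.25 of replicates 1 and 4. Replicates 1, 2 and 3 lay 0.400 to 0.422 from each other. Whether replicates 2 and 5 are separate cultures cannot be told either. All libraries were kept as labelled, and counts of called genes between the duplexes, in total and by list, are also given without replicate 4 where they change. On the first principal component of the 13 control libraries, which held 63.7% of the variance, the siCTRL#2 libraries lay at 15.3, 19.3, 22.8 and 21.1. All siCTRL#1 and NT libraries lay between -11.5 and -5.93 on it, so siCTRL#2 stood on its own. The second component, with 17.7%, held NT at 7.14 to 12.4 and siCTRL#1 at -10.8 to -5.34, with siCTRL#2 between them at -0.96 to 1.96.

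The cells carried the epithelial markers that a colorectal carcinoma line should have. All 10 markers of the list were measured, KRT19 being the most abundant, and their summed level was 4767 to 7371 RPM with siCTRL#1 and 5490 to 6064 with siCTRL#2. Among leukocyte markers 4 of 10 were measured, led by CD68, with sums of 7.18 to 11.6 and 10.3 to 13.5. Fibroblast markers had 2 of 9 measured, led by COL1A1, at 15.8 to 31.9 and 17 to 32. Endothelial markers had 3 of 7 measured, led by PECAM1, at 0.507 to 1.51 and 1.17 to 2.43. The ranges of these sums with siCTRL#1 and siCTRL#2 overlapped for each of these 4 lists. Among the epithelial markers CLDN7 was called lower with siCTRL#2, at -0.86 (limma adjusted p = 0.000222). PECAM1 itself was called higher with siCTRL#2, at 0.62 and near the floor, a call lost without siCTRL#1 replicate 3 (0.53), siCTRL#2 replicate 2 (0.60) or siCTRL#2 replicate 3 (0.56), and with another pseudocount or array weights.

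Cells with siCTRL#2 differed from cells with siCTRL#1 in 1946 genes, or 15.4% of all genes tested, although neither duplex has a target. Of these, 654 were higher with siCTRL#2 (5.18% of all genes) and 1292 lower (10.2%). The carboxypeptidase gene CPA4 was 6.18-fold higher, the receptor tyrosine kinase gene MET 4.45-fold higher and the autophagy gene ATG12 4.61-fold higher. TYMP, which encodes thymidine phosphorylase, was 8.15-fold lower on the scale with 1 added, and STAT2, a transcription factor of the type I interferon response, was 6.34-fold lower. In 1572 of the called genes the libraries of the groups did not overlap, 506 higher and 1066 lower, against 2742 such genes among all (21.7%). A log2 difference of at least 1 was reached by 98 of the higher genes, and 448 of the lower genes reached -1 or less. Called genes had a median log2 difference of 0.75 where higher and -0.86 where lower, while the median size over all genes was 0.26. Without siCTRL#1 replicate 4 the counts were 576 higher and 1180 lower, of which 530 and 1119 are among those called with it. In these bulk samples a smaller share of cells that express a gene and less RNA per cell cannot be told apart. Both duplexes are of the same product line by the paper, but each group has a single duplex, so its sequence cannot be told apart from its amount or from any other property.

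**Figure D1:**
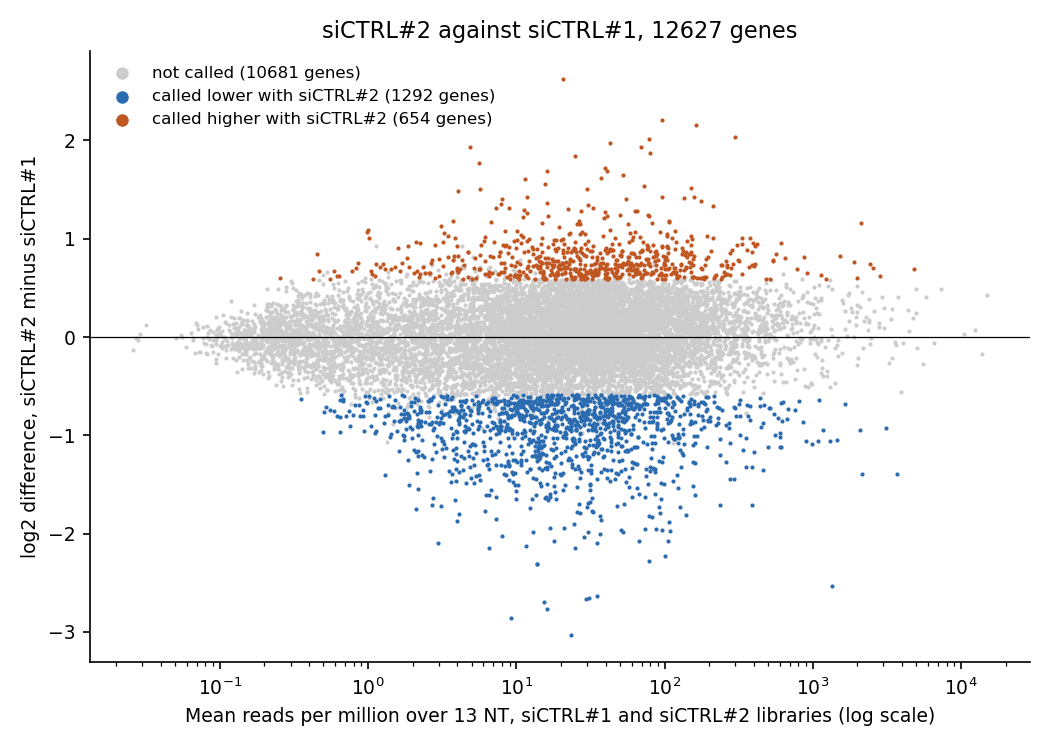
Each point is a gene, with its mean RPM over 13 control libraries on a log axis and its log2 difference, siCTRL#2 minus siCTRL#1, on the vertical axis. Genes called higher (654) and lower (1292) are coloured, and the lower ones reach further from 0, to -3.03 for TYMP against 2.63 for CPA4.

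Set against NT cells, the duplexes departed from the non-transfected state to unequal degrees. The siCTRL#1 cells differed from NT in 7.33% of all genes, 480 of them up (3.80%) and 446 down (3.53%). The siCTRL#2 cells differed in 14.9%, 648 of them up (5.13%) and 1235 down (9.78%). Without siCTRL#1 replicate 4 the counts against NT were 428 up and 391 down for siCTRL#1. Both comparisons use the same NT libraries. Each also shares its duplex's libraries with the comparison between the duplexes, so part of the overlap of calls is built in. Of the 1292 genes lower with siCTRL#2 than with siCTRL#1, 774 were also called lower with siCTRL#2 than in NT cells and not called for siCTRL#1. Another 142 of them were higher with siCTRL#1 than in NT cells and not called for siCTRL#2. Of the 654 higher genes, 182 were called higher with siCTRL#2 alone and 161 were called lower with siCTRL#1 alone. Neither duplex was called against NT for 338 of the lower and 298 of the higher genes.

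The 3′ UTRs of all genes, called or not, were searched for short words, since a seed pairs there. All 4096 words of 6 letters were counted in the 3′ UTRs of 12317 genes, in the letters of the transcript, and the 4078 words present in at least 200 genes were ranked by the median log2 difference left after a linear fit on GC content and length. The words were chosen by these values, so what follows describes them and tests nothing. The word GCAACC ranked lowest for siCTRL#2 against siCTRL#1, and lowest for siCTRL#2 against NT. The word GACGTA ranked highest for siCTRL#2 against siCTRL#1, and lowest for siCTRL#1 against NT. The rankings of a word share libraries, those of siCTRL#2 for GCAACC and those of siCTRL#1 for GACGTA, so they are not independent. Copies of GACGTA in the leading higher genes and of GCAACC in the leading lower genes are shown as examples of their surroundings, in the GRCh37 build and 5′ to 3′ along the transcript, with the word in capitals. They lie in the 3′ UTRs of MET (chr7:116437643-116437668, plus strand), HSPB1 (chr7:75933591-75933609, plus strand), PIGQ (chr16:633302-633327 and chr16:634039-634064, plus strand), DHRS11 (chr17:34957216-34957233, plus strand) and LMLN (chr3:197765707-197765732, plus strand). MET, ATG12 and AKAP12, which were higher with siCTRL#2, also hold 1 copy of GCAACC each, not shown.
MET, GACGTA: tggttttgtcGACGTAaacatttaaa
HSPB1, GCAACC: aaagttcaaaGCAACCacc
PIGQ, GCAACC, upstream copy: ggcgagcacaGCAACCccaggtgtcc
PIGQ, GCAACC, downstream copy: ggactccctgGCAACCcagcaccggg
DHRS11, GCAACC: aagaaaaatcGCAACCaa
LMLN, GCAACC, most upstream copy: gtcctcatcaGCAACCcaaccacctt

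The word GCAACC occurred in the 3′ UTR of 2803 genes, or 22.8%. Their median log2 difference, siCTRL#2 minus siCTRL#1, was -0.082, against 0.019 for genes without it, and 14.1% of them were called lower, against 9.13%. Genes with 1 copy had a median of -0.076 and genes with 2 or more copies -0.095, while their median 3′ UTR lengths were 2602 and 4741 bases against 953.5 without a copy. With A, C, G or T after the word the medians were -0.13, -0.074, -0.15 and -0.047. In the coding sequence of genes without a 3′ UTR copy, the word went with a median of -0.038 in 2794 genes, against 0.045 in the rest. In the 5′ UTR the values were -0.045 in 324 genes and 0.021 in the rest.

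Taken library by library against the NT mean, the median of GCAACC genes minus that of other genes was -0.099, -0.12, -0.13 and -0.12 in the siCTRL#2 libraries. The siCTRL#1 libraries had -0.02, 0.028, -0.064, -0.02 and -0.0015, and the NT libraries 0.016, -0.0024, -0.019 and -0.0049. All siCTRL#2 libraries thus lay below every siCTRL#1 and NT library. The 6 on-target conditions had means from -0.032 to -0.0074, and their lowest single library was at -0.061.

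The word GACGTA was rarer, in 555 genes or 4.51%. Their median log2 difference, siCTRL#2 minus siCTRL#1, was 0.16, against -0.0097 for genes without it, and 18.2% were called higher, against 4.65%. Against NT their median was -0.17 with siCTRL#1 and 0.0091 with siCTRL#2. Of the 25 genes with 2 or more copies, 9 were called higher and 0 lower by limma, with a median of 0.23. In the coding sequence of genes without a 3′ UTR copy, the word went with a median of 0.032 in 718 genes, and in the 5′ UTR with -0.011 in 68 genes.

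By library, GACGTA genes minus other genes stood at -0.15, -0.14, -0.25, -0.17 and -0.18 in the siCTRL#1 libraries. The siCTRL#2 libraries had 0.065, 0.031, 0.0047 and 0.0085, and the NT libraries 0.046, 0.0052, -0.026 and -0.011, so all siCTRL#1 libraries lay below them. Conditions with 30 nM of siCTRL#1 beside an on-target duplex had means of -0.18 for siVPS4A#2, -0.14 for siVPS4B#2, -0.093 for siVPS4B#1 and -0.082 for siVPS4A#1. The combined conditions, without siCTRL#1, had -0.057 for siVPS4A+B#1 and -0.027 for siVPS4A+B#2. Of the 10 called genes with the largest positive differences and no overlap between the duplexes, 1 held GACGTA, MET, and 3 held GCAACC. Of the 10 with the largest negative differences 9 had a 3′ UTR that could be searched, TYMP being without one, and 5 of these held GCAACC. Whether pairing with either duplex bears on these values was not tested.

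The 10 called genes with the largest positive differences and no overlap between the duplexes were of different kinds. Some stood low with siCTRL#1 against NT and others stood high with siCTRL#2 against NT. MET (NM_000245, chr7:116312250-116438431, plus strand), the receptor of hepatocyte growth factor, stood at 58.7, 50.7, 34.1, 57.1 and 45.3 RPM in the siCTRL#1 libraries. In the siCTRL#2 libraries it stood at 309, 200.2, 246 and 212, and in NT cells at 263, 227, 180.2 and 242. The siCTRL#1 libraries were low and apart from both other groups, which overlapped. The log2 difference of siCTRL#2 from siCTRL#1 was 2.15 (standard error 0.35, limma adjusted p = 1.97e-05), and that of siCTRL#1 from NT was -2.08 (adjusted p = 0.000141).

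ATG12 (NM_004707, chr5:115163897-115177534, minus strand) encodes a ubiquitin-like protein that is joined to ATG5 when autophagosomes form. Its levels were 35.3, 32.2, 34.3, 31.7 and 38.1 RPM with siCTRL#1, 167, 149, 178 and 158 with siCTRL#2 and 173, 69.8, 81.4 and 95.2 in NT cells. The siCTRL#1 libraries were again the low ones, and NT replicate 1 alone among the NT libraries reached the siCTRL#2 range. The log2 difference was 2.20 (standard error 0.22, limma adjusted p = 2.03e-09), made up of -1.49 for siCTRL#1 and 0.72 for siCTRL#2 against NT, both called.

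AKAP12 (NM_005100, chr6:151561102-151679694, plus strand), a scaffold that anchors protein kinase A, had 115, 122, 98.3, 117 and 144 RPM with siCTRL#1 and 482, 526, 434 and 466 with siCTRL#2. The groups did not overlap, and the log2 difference was 2.04 (limma adjusted p = 2.02e-11), with -1.54 for siCTRL#1 against NT. DKK1, a secreted inhibitor of Wnt signalling, had 9.37, 10.5, 6.93, 6.75 and 10.4 with siCTRL#1 and 24.2, 38.6, 36.4 and 46 with siCTRL#2. Its log2 difference was 1.84 (limma adjusted p = 0.000146), while siCTRL#1 lay at -1.76 and siCTRL#2 at 0.086 against NT. SUSD2, which encodes a membrane protein with a sushi domain, had a difference of 1.93 and likewise stood low with siCTRL#1, at -1.94 against NT. RPL17, a protein of the large ribosomal subunit, had a difference of 1.93, which rests on few reads, with means of 1.37 ± 0.656 (SD, n = 5) and 7.89 ± 0.795 RPM (SD, n = 4). Over the other settings it ranged from 1.01 to 2.57, both with another pseudocount.

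CPA4 (NM_016352, chr7:129932974-129964020, plus strand) had 5.19, 6.82, 15.7, 4.31 and 7.53 RPM with siCTRL#1, 29.9, 54.5, 73.5 and 54 with siCTRL#2 and 4.98, 2.6, 4.82 and 4.01 in NT cells. Here the siCTRL#2 libraries were high and apart from both other groups, and siCTRL#1 replicate 3 was the highest of its group. CPA4 differed by a log2 of 2.63 (standard error 0.38, limma adjusted p = 2.6e-06), and 3.36 against NT. TNFRSF6B, a decoy receptor of Fas ligand, was higher by 2.02 and lay at 1.78 with siCTRL#2 against NT. PLAU, the urokinase that activates plasminogen, was higher by 1.87, with 1.37 against NT. VGF, a precursor of secreted peptides, was higher by 1.97, with 1.16 against NT. None of CPA4, TNFRSF6B, PLAU and VGF was called for siCTRL#1 against NT.

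The 10 called genes with the largest negative differences and no overlap between the duplexes were all called lower with siCTRL#2 than in NT cells. Of them, 9 were not called for siCTRL#1 against NT. TYMP (NM_001113756, chr22:50964181-50968461, minus strand) had 35.1, 16, 34.1, 31.4 and 19.2 RPM with siCTRL#1, 2.86, 2.09, 3.23 and 1.8 with siCTRL#2 and 49.1, 33.9, 30.3 and 44.1 in NT cells. Every siCTRL#2 library lay under every other control library. TYMP differed by a log2 of -3.03 (standard error 0.19, limma adjusted p = 7.61e-14), and -2.93 without siCTRL#1 replicate 4. Over all settings it ranged from -3.52 with DESeq2 to -2.11 with a pseudocount of 5.

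STAT2 (NM_005419, chr12:56735381-56753987, minus strand) had 40, 50.5, 33.1, 42.2 and 42.1 RPM with siCTRL#1 and 9.88, 4.42, 5.03 and 4.22 with siCTRL#2. In NT cells it had 28.9, 43.1, 38 and 45.1. The siCTRL#2 libraries were low and apart from both other groups, with replicate 1 the highest among them. STAT2 differed by a log2 of -2.66 (standard error 0.21, limma adjusted p = 2.29e-11), and siCTRL#1 lay at 0.085 against NT.

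HSPB1 (NM_001540, chr7:75931990-75933612, plus strand), a small heat shock chaperone, differed in both directions from NT. Its levels were 1906, 2358, 2785, 1984 and 2270 RPM with siCTRL#1, 294, 528, 308 and 492 with siCTRL#2 and 811, 1305, 1383 and 1030 in NT cells. The siCTRL#1 libraries all lay above the NT libraries and the siCTRL#2 libraries all below them. The log2 difference was -2.54 (standard error 0.22, limma adjusted p = 8.95e-11), with a 2.05-fold rise for siCTRL#1 and a 2.82-fold fall for siCTRL#2 against NT.

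PIGQ (NM_148920, chr16:616995-634109, plus strand), a subunit of the enzyme that starts the synthesis of GPI anchors, had 14.4, 12.7, 13.5, 16.1 and 10.1 RPM with siCTRL#1 and 1.72, 1.23, 0.718 and 0.359 with siCTRL#2. The groups lay far apart, and the fitted log2 difference, -2.86, depends on the pseudocount at such levels. LMLN, a metallopeptidase with 13 copies of GCAACC in its 3′ UTR, had 26.8, 22.2, 25, 26.3 and 29.6 with siCTRL#1 and 3.58, 2.45, 3.35 and 2.24 with siCTRL#2, a difference of -2.77 (limma adjusted p = 5.07e-14). The other genes of the 10 were SYTL1 (-2.70), which encodes a RAB27 effector, and TONSL (-2.65), which acts in the repair of stalled replication forks. METTL26 (-2.63), the splicing gene PRPF40B (-2.31) and the dehydrogenase gene DHRS11 (-2.31) completed them. With a pseudocount of 5 the difference was -1.60 for PIGQ, -1.65 for SYTL1, -1.52 for PRPF40B and -1.48 for DHRS11, and all stayed called.

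**Figure D2:**
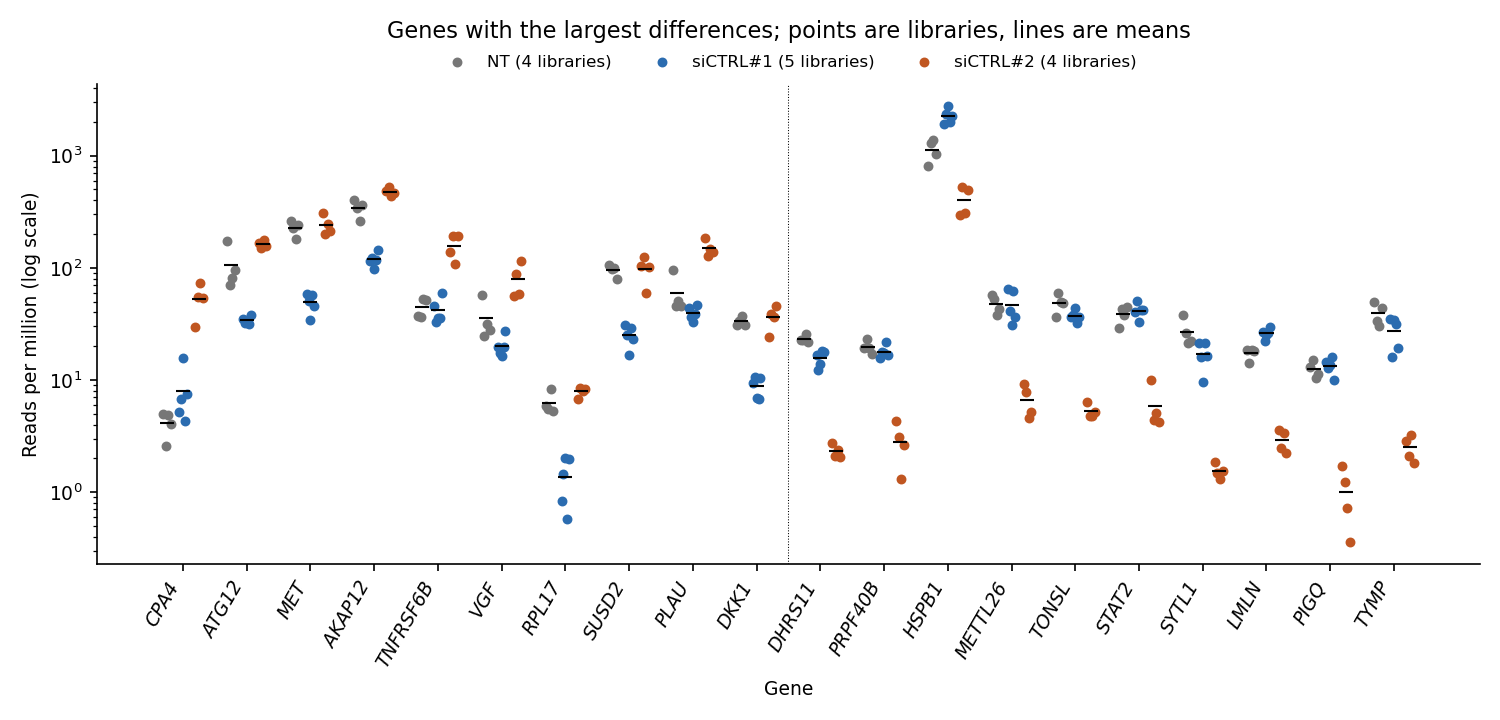
Each point is a library, in RPM on a log axis, for NT (4 libraries), siCTRL#1 (5) and siCTRL#2 (4), and lines are means. Left of the dotted line are the 10 genes with the largest positive and right of it the 10 with the largest negative log2 difference, all chosen to have no overlap between siCTRL#1 and siCTRL#2 libraries.

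Among the called genes with the most RPM, not scaled to transcript length, RPLP0, a stalk protein of the large ribosomal subunit that is often used as a reference gene, was lower with siCTRL#2. It had 5037, 3377, 5642, 5345 and 3595 RPM with siCTRL#1, 1821, 2183, 1463 and 1730 with siCTRL#2 and 3822, 4860, 4156 and 4896 in NT cells. The siCTRL#2 libraries were the low ones, with a log2 difference of -1.40 (limma adjusted p = 5.87e-07). FTL, the ferritin light chain, was lower with a log2 difference of -1.40, and SCD, the stearoyl-CoA desaturase, at -0.92. The glycolytic enzyme gene ENO1 was higher by 0.69, with groups that overlapped, and the ribosomal protein gene RPL29 by 0.71. CYB5B, a cytochrome of the outer mitochondrial membrane, was higher by 0.62, a call lost without siCTRL#1 replicate 2 (0.51) or siCTRL#2 replicate 2 (0.58), and with scaling to total reads, array weights or the GC correction (0.53). Of 13 reference genes in common use, 5 (38.5%) were lower with siCTRL#2 and 0 higher by limma, where 10.2% of all genes were lower and 5.18% higher. Besides RPLP0 these include GUSB at -1.15 (-0.70 with a pseudocount of 5) and YWHAZ at -0.84.

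The replication-dependent histone genes, which are transcribed in S phase and supply new chromatin, were the list with the most calls. From here on, a number in brackets after a count of a list is the count without siCTRL#1 replicate 4, where that differs. Over all genes 10.2% were lower and 5.18% higher, the shares to set beside these counts. Of 42 histone genes measured, 30 (25) were lower with siCTRL#2, with a list median of -0.77 against -0.0040 for all genes. H2BC26 had 227, 123, 214, 225 and 116 RPM with siCTRL#1, 64.2, 48.2, 91.7 and 52.1 with siCTRL#2 and 330.2, 207, 195 and 205 in NT cells. All siCTRL#2 libraries lay below the rest, and the log2 difference was -1.60 (limma adjusted p = 7.16e-08). H2BC12 was lower with a log2 difference of -1.64, H2AC25 at -1.51 and H2AC14 at -1.44. Against NT, 35 members were lower with siCTRL#2 (median -1.16) and 5 with siCTRL#1 (median -0.26), comparisons that share the NT libraries. The shares of all genes lower against NT were 9.78% with siCTRL#2 and 3.53% with siCTRL#1. Without siCTRL#1 replicate 4 the median between the duplexes was -0.78. Histone genes are near copies of each other, so reads may have been divided among them.

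Genes of DNA replication and the G1/S transition were called mostly in the same direction. Of 43 measured, 13 (14) were lower and 1 higher, with a median of -0.32. MCM5, a subunit of the replicative helicase, was lower with a log2 difference of -1.09 and groups that overlapped. UHRF1, which maintains DNA methylation, was lower at -1.08, and the origin licensing factor CDT1 at -0.99. CCNE1, the cyclin E that drives entry into S phase, was the member called higher, at 0.92. Genes of mitosis and G2/M had 4 of 43 lower (9.30%) and 1 higher (2.33%), where all genes had 10.2% and 5.18%. The higher member was the phosphatase gene CDC25B, at 1.00. The median of the list was -0.019, and -0.11 without siCTRL#1 replicate 4.

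ATF4 is the transcription factor of the integrated stress response. Of 32 of its targets measured, 10 (5) were lower and 0 higher by limma, with a median of -0.53. CHAC1, which degrades glutathione, had 332, 133, 64, 294 and 66.7 RPM with siCTRL#1, 115, 37.4, 21.4 and 31.2 with siCTRL#2 and 133, 97.1, 33.3 and 58.7 in NT cells. Replicates 1 and 4 of siCTRL#1 were its high libraries, and siCTRL#2 replicate 1 lay within the siCTRL#1 range. The log2 difference was -1.97 (limma adjusted p = 0.000258), and -1.56 without siCTRL#1 replicate 4, and the gene was not called in a fit without the replicate block. PCK2, the mitochondrial PEP carboxykinase, was lower at -1.60, with groups that overlapped. Its high siCTRL#1 libraries were again replicates 1 and 4, at 179 and 194 RPM. The serine and glycine enzyme SHMT2 was lower at -1.08 and the AP-1 family gene JDP2, on few reads, at -1.39 (-1.90 to -0.70 over the settings). Without siCTRL#1 replicate 4 the median of the list was -0.37.

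Wnt and beta-catenin targets had 6 (5) of 15 lower and 1 higher, with a median of -0.38. CCND1, the cyclin D1 of early G1, had 1239, 1208, 1662, 1089 and 1105 RPM with siCTRL#1, 661, 629.9, 599 and 528 with siCTRL#2 and 857, 733, 807 and 664 in NT cells. The siCTRL#1 libraries were high and apart from both other groups, and the siCTRL#2 libraries all lay below NT too. Its log2 difference was -1.06 (limma adjusted p = 2.43e-07), with 0.72 for siCTRL#1 against NT. NOTUM, a secreted enzyme that inactivates Wnt proteins, was lower at -1.86, and RNF43, a ligase that removes Wnt receptors, at -1.12. DKK1, given above, was the higher member. All 3 lower genes named here were called higher with siCTRL#1 than in NT cells.

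The EGFR family with MET and their ligands had 5 (4) of 12 lower and 1 higher, the latter being MET, with a median of -0.56. MST1R, the MET paralog that binds macrophage-stimulating protein, was lower at -1.95, so that the paralogs differed in opposite directions between the duplexes. Against NT both were called lower with siCTRL#1, MET at -2.08 and MST1R at -0.65. With siCTRL#2 MET was not called against NT, at 0.076, and MST1R was lower at -2.59. Among ligands of EGFR, EREG was lower at -0.90 with groups that overlapped, and BTC at -0.91, a call lost with a pseudocount of 5 (-0.57). Of 16 outputs of the ERK pathway, 2 were lower and 1 higher, the phosphatase gene DUSP4 at 0.87, and the median was 0.0096, with -0.029 to 0.014 over the scalings and -0.029 to 0.12 over all settings.

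Genes that act on duplexes or respond to them were examined as lists too. In the RNA interference machinery 2 (1) of 15 were lower (13.3%), where 10.2% of all genes were lower, and 0 were higher by limma. AGO1, an Argonaute protein, had 49, 50.8, 50, 52.1 and 43.9 RPM with siCTRL#1 and 26.2, 22.6, 12.9 and 18.6 with siCTRL#2. The groups did not overlap, and the log2 difference was -1.34 (limma adjusted p = 4.03e-08). PRKRA, the other, lay at -0.62, a call lost without any of siCTRL#1 replicates 1, 3, 4 or 5 or siCTRL#2 replicates 1, 2 or 4, with -0.74 to -0.48 over the libraries left out, and lost without the replicate block. The most abundant member, AGO2, which cleaves paired transcripts, was not called, at 0.28 (limma adjusted p = 0.223).

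Sensors of double-stranded RNA and nucleic acids had 5 (4) of 18 lower and 1 higher. Their median was -0.21 and ran from -0.52 to -0.059 over all settings. IRF7, which induces interferon genes, was lower at -1.11, the kinase gene IKBKE at -0.91 and OAS3, which makes the messenger that activates RNase L, at -0.89. Of 31 interferon-stimulated genes 4 (2) were lower, STAT2 among them, and 0 higher by limma. The median of the list was -0.057 and ran from -0.17 to -0.027 over all settings. The 4 lower genes are 12.9% of the list, where 10.2% of all genes were lower. Another count, of members higher with siCTRL#1 than in NT cells, was 4 of 31, IFI35 and USP18 among them. In that comparison 3.80% of all genes were higher. IFI35 was lower at -0.93. BST2, which tethers virus particles, was lower at -1.19 with groups that overlapped. The BST2 call was lost without siCTRL#1 replicate 4 (-0.90), without the replicate block or with a pseudocount of 5 (-0.71). USP18, which removes ISG15 from proteins, was lower at -0.60, a call lost without any of siCTRL#1 replicates 3, 4 or 5, siCTRL#2 replicate 2 or siVPS4A#1 replicate 2, with -0.71 to -0.52 over the libraries left out. Its call was also lost without the replicate block, in the fit on control libraries only and with a pseudocount of 5 (-0.49). Of 26 targets of NF-kB, ICAM1 alone was called, at 0.61 and higher, with groups that overlapped. The call was lost without any of siCTRL#1 replicates 1, 2, 3 or 5 or siCTRL#2 replicate 1. Over the libraries left out ICAM1 differed by 0.53 to 0.77. Its call was also lost in the fit on control libraries only, with scaling to total reads and with a pseudocount of 5 (0.45).

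Cytosolic heat shock genes had 6 (4) of 21 higher and 1 lower, the latter being HSPB1, with a median of 0.33. HSP90AA1, an HSP90 chaperone, had 1114, 1459, 1405, 1231 and 1443 RPM with siCTRL#1, 2762, 2824, 3421 and 2887 with siCTRL#2 and 1407, 2212, 2781 and 2601 in NT cells. Its siCTRL#1 libraries lay below all siCTRL#2 libraries, with NT in between and overlapping both. The log2 difference was 1.16 (limma adjusted p = 1.23e-06), with 0.75 for HSP90AB1 and 0.73 for the HSP90 activator AHSA1. Chaperones of the endoplasmic reticulum and genes of the unfolded protein response had 2 of 22 in each direction. There PDIA4 was higher by 0.82, and HYOU1 was lower at -1.03.

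Cytosolic ribosomal protein genes had 14 (13) of 78 higher and 1 lower, RPLP0, with a median of 0.30. Against NT, 17 were lower with siCTRL#1 (median -0.38) and 3 with siCTRL#2 (median -0.095), with the same NT libraries in both. The shares of all genes lower against NT were 3.53% with siCTRL#1 and 9.78% with siCTRL#2. RPL34 was higher by 1.48 between the duplexes (0.74 with a pseudocount of 5) and RPS7 by 1.02, both on few reads, the latter call being lost with a pseudocount of 5 (0.58), and reads of such genes may be divided with processed copies. Subunits of oxidative phosphorylation had 10 (9) of 78 higher and 2 lower, with a median of 0.21. ATP5ME, of the ATP synthase, was higher by 0.99, and ATP5F1D, of the same enzyme, was lower at -1.04. Nucleolar genes of ribosome biogenesis had a median of 0.22 with RRP1B alone called, at 0.83, a call lost without any of siCTRL#1 replicates 1, 3 or 4 or siCTRL#2 replicates 1 or 3, with 0.70 to 1.00 over the libraries left out.

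Lipid genes were counted by pathway. Of 10 genes of fatty acid synthesis 4 were lower, with a median of -0.41, among them SCD, FASN, the fatty acid synthase, and FADS1, a desaturase, at -1.02. In sterol synthesis and uptake 3 (2) of 26 were higher and 2 lower, with a median of 0.023 that ran from -0.015 to 0.028 over the scalings and from -0.033 to 0.058 over all settings. FDFT1, which makes squalene, was higher by 0.71, and SREBF1, the regulator of lipid synthesis, was lower at -1.34. Antioxidant targets of NRF2 had 5 of 24 lower, with NQO1, a quinone reductase, at -1.27, and a median of 0.03 that ran from -0.006 to 0.033 over the scalings and from -0.07 to 0.047 over all settings. In the hypoxia and glycolysis list 5 (4) of 35 were higher and 3 (4) lower, with PFKL at -1.53, LDHA at -1.12 and NDRG1 at 1.01. The groups overlapped for NDRG1.

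Regulators of cell death and p53 targets held calls in both directions. In the BCL2 family 4 (3) of 15 were lower and 1 higher, with a median of -0.38, and BMF, which promotes apoptosis, was lower at -1.25. Of 29 p53 targets 3 (2) were higher (10.3%) and 2 lower (6.90%), where all genes had 5.18% and 10.2%. FDXR, which donates electrons in mitochondria, was lower at -2.27 and the DNA damage gene DDB2 at -1.07, while the kinase gene PLK2 was higher by 1.00 and SESN1 by 0.80. Of 21 integrin and laminin genes 6 (5) were lower and 0 higher by limma, with LAMB2, a laminin chain, at -1.72 and the tetraspanin CD151 at -1.12. In the TGF-beta list 3 of 30 were higher (10%) and 4 (3) lower (13.3%), with SMAD7, which restrains the pathway, at -1.31.

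Membrane trafficking genes around VPS4 were examined as lists. Of 32 ESCRT genes and partners 2 were lower (6.25%) and 1 higher (3.13%), where all genes had 10.2% and 5.18%. VPS28 of ESCRT-I was lower at -1.53 and PTPN23 at -1.41, while CHMP5 was higher by 0.79, and the median was 0.16. Lysosomal genes had 10 (9) of 36 lower and 2 higher, with a median of -0.12. MCOLN1, the lysosomal calcium channel, had 26.1, 28.7, 26.5, 22.8 and 23.6 RPM with siCTRL#1 and 5.87, 5.64, 4.67 and 4.4 with siCTRL#2, groups that lay apart. Its log2 difference was -2.07 (limma adjusted p = 5.64e-11), and GAA, the acid glucosidase, was lower at -1.65. Of 30 autophagy genes 3 (1) were higher (10%), ATG12 among them, and 3 (2) lower (10%), where all genes had 5.18% and 10.2%. ATG9A was lower at -0.96. Of 25 genes of clathrin, caveolin and endosomes 4 (5) were lower and 1 (0) higher, with the adaptor gene AP2B1 at -0.93 and RAB7A, of late endosomes, at -0.85.

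**Figure D3:**
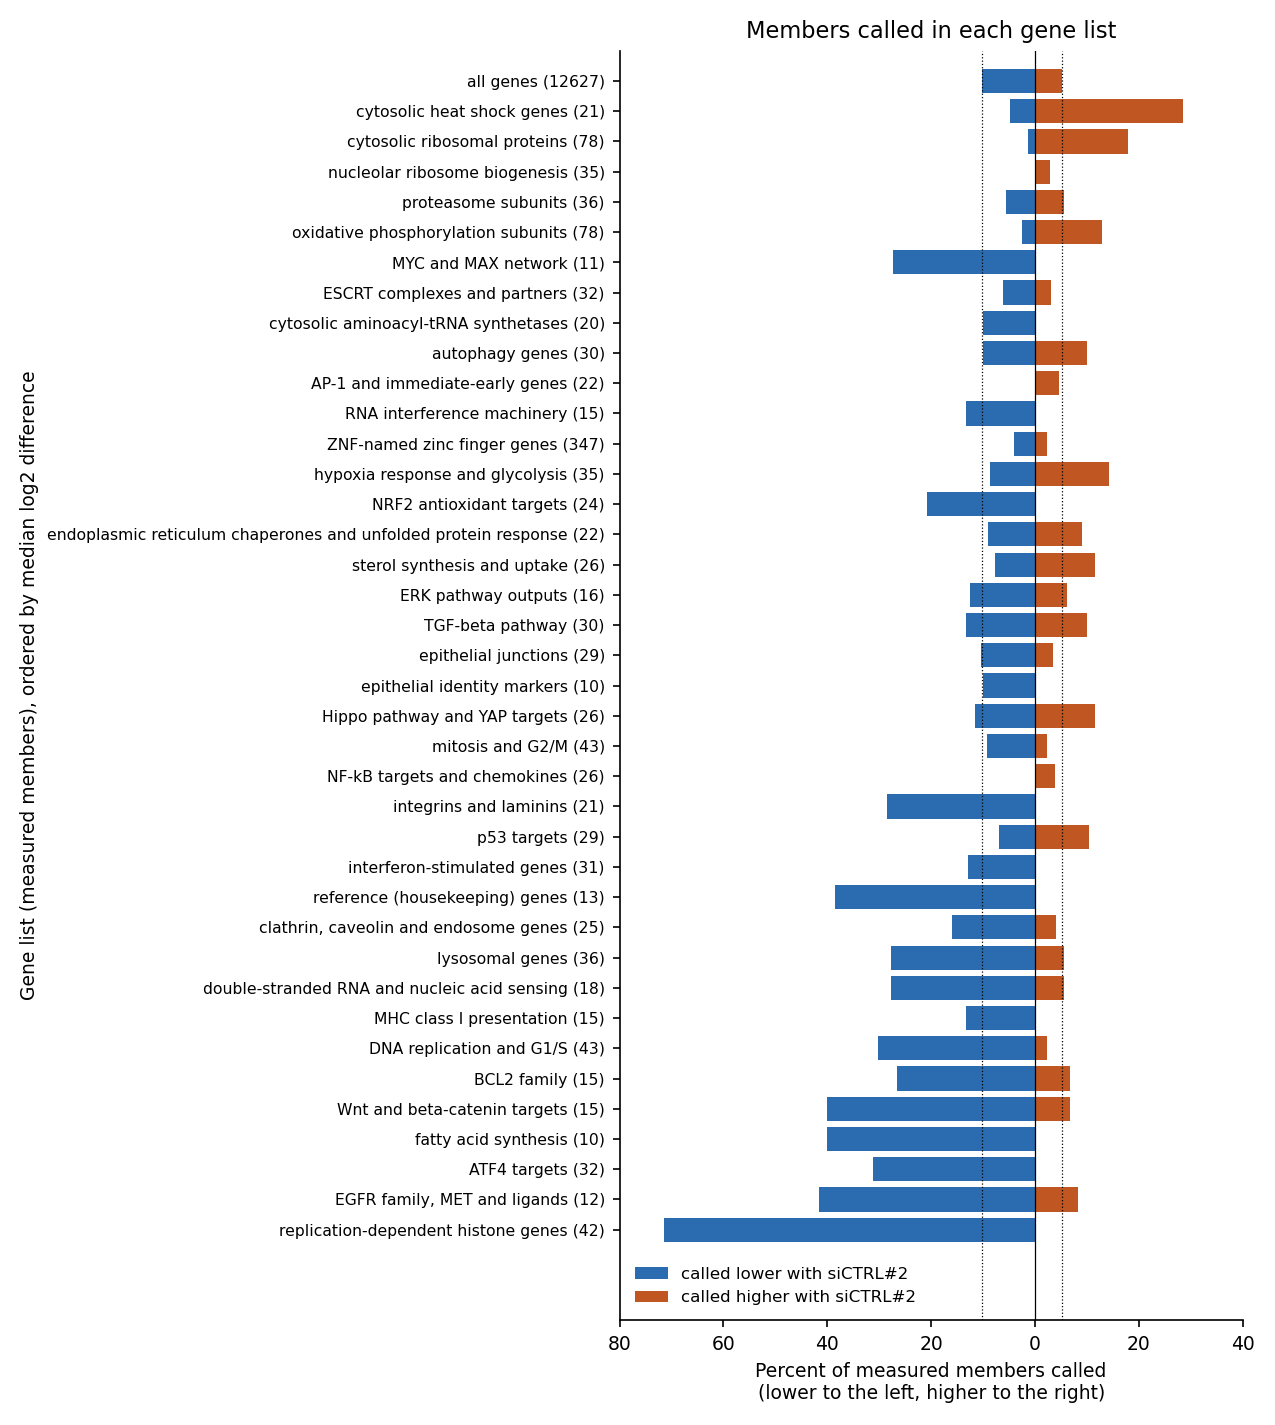
Bars show the percent of each list's measured members called lower (left) or higher (right) with siCTRL#2 than with siCTRL#1, in order of the list's median log2 difference, with the number measured in brackets. Dotted lines mark all genes, 10.2% lower and 5.18% higher; histone genes (71.4% lower) and heat shock genes (28.6% higher) stand at the ends.

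VPS4A (NM_013245, chr16:69345253-69360842, plus strand) and VPS4B (NM_004869, chr18:61056423-61089716, minus strand) are targets of neither duplex. VPS4A had 197, 172, 179, 191 and 206 RPM with siCTRL#1, 232, 216, 250.5 and 223 with siCTRL#2 and 325, 200.2, 248 and 216 in NT cells. The siCTRL#2 libraries all lay above the siCTRL#1 libraries, within the range of NT. The difference in mean log2 was 0.29 (2-sided exact permutation test over 126 splits, p = 0.0159, where 0.00794 is the smallest possible). This test takes the libraries as exchangeable, without their batches, and counts siCTRL#1 replicates 1 and 4 as independent. Limma, with the batches in the model, gave 0.23 (standard error 0.29) and an adjusted p of 0.634, with 0.099 to 0.35 over the libraries left out. Its standard error pools the spread over all 38 libraries, those with VPS4A or VPS4B silenced included. The limma p therefore does not measure the spread within the siCTRL groups alone. VPS4B had 23.8, 20.1, 16.4, 18.1 and 24.5 with siCTRL#1 and 35.2, 19.4, 38.8 and 32.9 with siCTRL#2. Its groups overlapped through siCTRL#2 replicate 2, the low library of its group. The difference was 0.57 (2-sided exact permutation test, p = 0.0635), and limma, with the same pooled spread, gave 0.69 (standard error 0.36) with an adjusted p of 0.181.

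The calls made here with limma for the study's on-target conditions moved when siCTRL#2 took the place of siCTRL#1 as the transfected reference. For siVPS4A#2, 9 genes (0.0713%) were called against siCTRL#1, 5 higher and 4 lower, and 1971 (15.6%) against siCTRL#2, 1292 higher and 679 lower. For siVPS4B#2 the counts were 707 (5.60%) and 2490 (19.7%), and for siVPS4B#1 they were 1444 (11.4%) and 2673 (21.2%). For siVPS4A#1, with its replicate 2 of only 669257 reads kept, they were 2429 (19.2%) and 3346 (26.5%). The counts of the combined conditions changed less, from 2540 (20.1%) to 3235 (25.6%) for siVPS4A+B#1 and from 3537 (28%) to 3980 (31.5%) for siVPS4A+B#2. Their cells received no siCTRL#1, and whether this bears on the counts was not tested. Comparisons of a condition with siCTRL#1 and with siCTRL#2 share that condition's libraries.

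A target's calls were also counted by requiring both of its duplexes to pass against both NT and a siCTRL duplex. For VPS4A this gave 1 gene with siCTRL#1 (0.00792%), VPS4A itself, and 83 with siCTRL#2 (0.657%), 47 higher and 36 lower. The latter count was 127 without siVPS4A#1 replicate 2, a library of 669257 reads, and 54 without NT replicate 1. For VPS4B there were 108 (0.855%) and 286 (2.26%), of which 36 higher and 26 lower genes were in both. For the combined conditions there were 943 (7.47%) and 900 (7.13%), with 385 higher and 250 lower genes in both. Without siCTRL#1 replicate 4 the counts with siCTRL#1 were 81 for VPS4B and 886 for the combined conditions. For VPS4B the shared genes are 36 of 48 higher and 26 of 60 lower with siCTRL#1, and 36 of 170 higher and 26 of 116 lower with siCTRL#2. For the combined conditions they are 385 of 501 higher and 250 of 442 lower with siCTRL#1, and 385 of 551 higher and 250 of 349 lower with siCTRL#2.

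**Figure D4:**
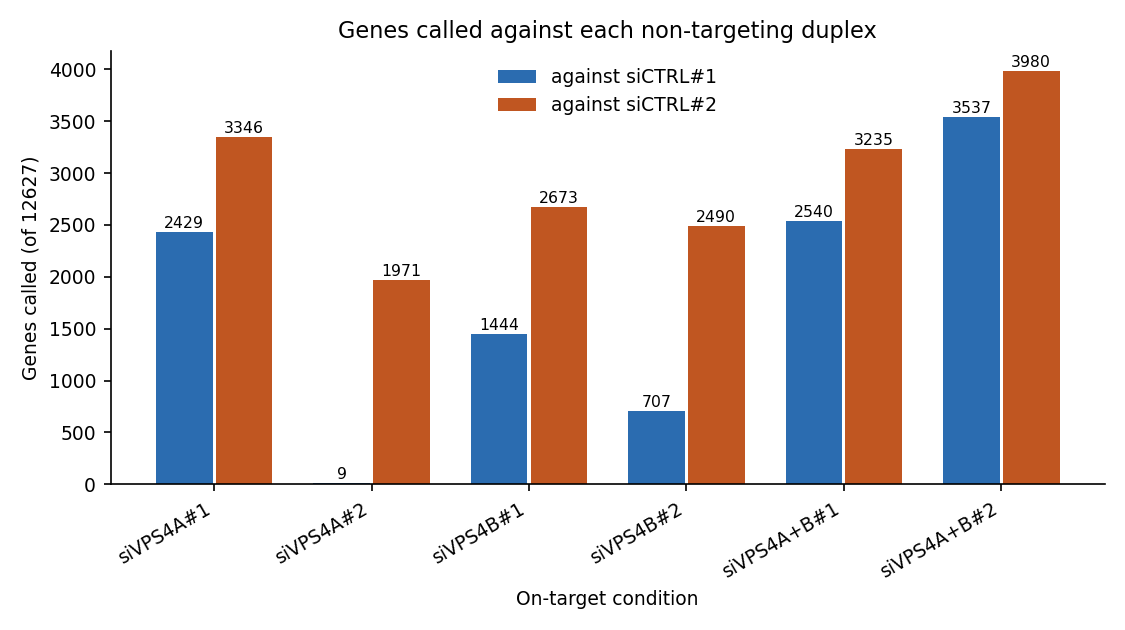
Bars give the number of genes, among all tested, called for each on-target condition against siCTRL#1 and against siCTRL#2. The counts are higher against siCTRL#2 in all 6 conditions, from 9 to 1971 for siVPS4A#2 and from 3537 to 3980 for siVPS4A+B#2.

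The genes called lower had more GC in their coding sequence than the rest. Over 12382 genes with a matched transcript (98.1%), the median coding GC was 52.9%, against 60.2% for genes called lower, 50.5% for genes called higher and 52% for genes not called. Their 3′ UTRs were shorter, with a median of 831.5 bases against 1279 over all matched genes and 1573.5 for genes called higher. Among the tenth of genes with the least coding GC 3.31% were lower and 4.68% higher, and among the tenth with the most 20.3% were lower and 2.74% higher. With a GC correction of each library, chosen after seeing the data, 665 genes were higher and 1123 lower, of which 510 and 1032 are also called without it. The part of GC content and of 3′ UTR length in the difference between the duplexes was not tested beyond this.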

How the data were processed

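The measured samples were RNA libraries of HCT116 cells, amplified with an Ion AmpliSeq Transcriptome panel, sequenced on an Ion Proton, aligned to hg19 with TMAP and counted with HTSeq-count 0.6.0. The values the authors deposited are a signal: for each of 12627 genes, its fraction of all reads in the library. Every table column belongs to a labelled library (0 without one). Reads were recovered by dividing by the share of 1 read; 100% of values printed precisely enough (50.4% of all) were whole within 0.1 reads.

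An edgeR test was planned for counts, but the deposited values are normalized, so limma 3.58.1 with an intensity trend was fitted to log2 of RPM plus 1, scaled by TMM (edgeR 4.0.16), over 38 libraries, modelling 9 conditions plus a block for the replicate number. The labels give the numbers as batches and the study's DESeq2 1.18.1 model used them. Deviations of libraries with the same number correlated at a mean of 0.173 (12 pairs, -0.335 to 0.389), others at -0.0611 (36 pairs).

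Members and lists were chosen with earlier results of these data known. Named genes are VPS4A and VPS4B, the 10 largest called differences in each direction without overlap, the 4 largest called differences of each list or, without a call, its most abundant member, and the 3 most abundant called genes in each direction. Outside this rule, AGO2 was added as the most abundant member of its list. Symbols matched for 12474 of 12627 genes, and transcripts came from GENCODE for GRCh37. Alternatives were other scalings, pseudocounts, filters and thresholds, no block, fits on control libraries only, array weights, each of the 13 control libraries or siVPS4A#1 replicate 2 left out, a GC correction, and edgeR and DESeq2 1.42.0 on the recovered reads, which called 769 higher and 1529 lower (edgeR) and 724 and 1576 (DESeq2). The fits and the search for words were tested on simulated data. Software was R 4.3.3, pandas 2.3.3, numpy 2.4.6, matplotlib 3.10.9 and Python 3.11.15.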

Additional observations from a re-analysis of the deposited data

Results flagged for a closer look

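Among 87 groups of libraries tested for a single library far from the rest, 4 stood out, and chance flags about 1 in 20 groups. CPA4 was at 15.7 RPM in siCTRL#1 replicate 3, where the next of the 5 libraries had 7.53 and the lowest 4.31. STAT2 was at 9.88 RPM in siCTRL#2 replicate 1, where the next of the 4 libraries had 5.03 and the lowest 4.22. Both lay on the side of the other duplex, and in both genes the groups stayed apart. CHAC1 was at 115.3 RPM in siCTRL#2 replicate 1, where the next of the 4 libraries had 37.4 and the lowest 21.4, and this library lay within the siCTRL#1 range. CCND1 was at 1662 RPM in siCTRL#1 replicate 3, where the next of the 5 libraries had 1239 and the lowest 1089, on the side away from siCTRL#2.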

How the results depend on the processing

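No gene called between the duplexes in the main fit was called in the opposite direction under any of the 28 other settings. Of 145 named genes with a call, 23 lost it without at least 1 library. The counts moved most with the test and the threshold.

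Under limma's treat against 1.5-fold, 48 genes were higher and 244 lower with siCTRL#2 than with siCTRL#1. Against NT there were 9 and 16 for siCTRL#1, and 38 and 266 for siCTRL#2. On-target calls were 2 for VPS4A with siCTRL#2, 1 and 16 for VPS4B with siCTRL#1 and siCTRL#2, and 147 and 144 for the combined conditions. Treat tests for a fold beyond the threshold.

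At a fold of 2 the counts were 98 and 448 between the duplexes, 90 and 71 for siCTRL#1 against NT, and 117 and 480 for siCTRL#2 against NT. On-target calls were 10 for VPS4A with siCTRL#2, 12 and 52 for VPS4B, and 306 and 271 for the combined conditions.

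A pseudocount of 5 gave 443 higher and 862 lower between the duplexes. Against NT it gave 290 higher and 283 lower for siCTRL#1, and 391 higher for siCTRL#2. It gave 40 on-target calls for VPS4A with siCTRL#2, 68 and 180 for VPS4B, and 626 for the combined conditions with siCTRL#1. The cause was not tested.

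With upper-quartile scaling, VPS4B differed by 0.57 (exact permutation test, p = 0.0476), and the cause was not tested. Without the replicate block, 596 genes were higher and 1216 lower between the duplexes, and no count moved by over 1.5 times. In the fit on control libraries only, siCTRL#1 replicate 5 has no partner in its block and does not enter (807 higher, 1425 lower).

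Leaving out 1 library at a time, among the 13 control libraries and siVPS4A#1 replicate 2, gave 576 to 801 higher and 1129 to 1388 lower between the duplexes. Against NT it gave 369 to 611 and 323 to 532 for siCTRL#1, and 559 to 766 and 1093 to 1327 for siCTRL#2. Over these 14 fits, in which no other on-target library was left out, on-target calls ranged, with siCTRL#1 and siCTRL#2, from 1 to 1 and 54 to 127 for VPS4A, 81 to 141 and 251 to 326 for VPS4B, and 882 to 1025 and 836 to 937 for the combined conditions. In means of log2 the difference of VPS4A ranged from 0.25 to 0.33, and from 0.099 to 0.35 in limma with the block. That of VPS4B ranged in means from 0.46 to 0.77. The highest, 0.77, is without siCTRL#2 replicate 2, the library that made the groups overlap; its exact p of 0.0179 is the smallest that 5 against 3 libraries allow.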

Other observations

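Zinc finger genes named ZNF, most of them transcriptional repressors, had 14 lower (4.03%) and 8 (9) higher (2.31%) of 347 measured, where all genes had 10.2% and 5.18%. A number in brackets after a count is the count without siCTRL#1 replicate 4, where that differs. ZNF384 was lower with siCTRL#2 with a log2 difference of -2.10, with 42.5 ± 5.61 RPM (SD, n = 5) with siCTRL#1 and 9.05 ± 2.32 (SD, n = 4) with siCTRL#2. ZNF385A was lower at -1.70 and ZNF664 at -1.60. In the MYC and MAX network 3 of 11 were lower, MXD3, MLXIP and MLX, at -1.42 (a call lost with a pseudocount of 0.1), -1.34 and -0.65, while the median of the network was 0.19. MLX and MLXIP form a dimer that responds to glucose.

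Hippo pathway genes and YAP targets had 3 higher and 3 (1) lower of 26, with WWTR1, which encodes TAZ, higher by 0.85 and the target CCN2 lower at -0.84. Of 36 proteasome subunits 2 were higher and 2 lower, with PSMA5 at 0.90 and the immunoproteasome subunit PSMB9 at -1.15. Epithelial junction genes had 3 of 29 lower and 1 (0) higher, with the claudin CLDN7 at -0.86. Aminoacyl-tRNA synthetases had 2 (1) of 20 lower (10%). The shares lower and higher were 11.5% and 11.5% for the Hippo list, 5.56% and 5.56% for proteasome subunits and 10.3% and 3.45% for junctions. Over all genes 10.2% were lower and 5.18% higher.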
